A study of Mus musculus with 12 samples.

Results

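The CCN family of matricellular proteins was followed through the hypertrophic zone of the mouse growth plate. Its 6 genes are Ctgf, Cyr61, Nov, Wisp1, Wisp2 and Wisp3. All probes carrying 1 of these symbols were taken, which gave 1 probe each for 5 genes, among 27962 gene names and 41174 probes on the array. No probe carried the symbol Wisp3. The family was chosen on measured values, because Ctgf was lower in the Schmid mouse and not in the Cog mouse. The Ctgf values in those contrasts are therefore given as a description, with no test.

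CCN proteins are secreted into the extracellular matrix and are built from modules that resemble IGF binding proteins, von Willebrand factor type C, thrombospondin and a C-terminal cystine knot, the last of which Wisp2 lacks. They act through integrins, proteoglycans and LRP receptors, and they bind growth factors such as BMPs, TGF-beta and VEGF. In cartilage, Ctgf is known as a product of hypertrophic chondrocytes that is required for normal growth plate maturation and for the invasion of vessels, and Ctgf and Cyr61 are familiar targets of TGF-beta signalling and of the transcriptional coactivators YAP and TAZ.

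The hypertrophic zone is the layer of the growth plate in which chondrocytes enlarge and deposit collagen X before the cartilage is replaced by bone. Schmid mice were homozygous for a Col10a1 allele with the substitution p.Asn617Lys, which gives a misfolding collagen X, with wildtype mice of the Schmid background as their controls. The Cog genotype carried the ColXTgcog transgene, which directs a misfolding thyroglobulin to the hypertrophic zone under collagen X gene control, and its controls were wildtype mice of the Cog background. The controls were littermates. Hemizygous and homozygous Cog mice were not told apart. Each of the 4 groups held 3 mice aged 14 days, with 1 tibia per mouse, hand microdissection of the zone, 2 rounds of linear RNA amplification and 1 single-colour array per mouse.

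The deposited spot intensities were used, on the log2 scale after background correction and quantile normalisation. A gene was called at a Benjamini-Hochberg adjusted p of 0.05 or less in limma, over all 41174 probes, together with a change of at least 2-fold. Between 39.6% and 61.8% of spots were well above background, with the range of 58.9% to 61.8% in Schmid arrays and 39.6% to 48.1% in Cog arrays. The labels were borne out by thyroglobulin, whose probes Tgn were 207-fold and 239-fold higher in Cog than in its wildtype. The collagen X gene Col10a1 was 1.01-fold lower in Schmid (adjusted p = 0.987, limma), and all 8 markers of hypertrophic chondrocytes were well above background on all 12 arrays. The 3 Schmid arrays shared slide 1, the Schmid wildtype arrays lay on slides 2 and 3, the Cog arrays on slide 3 and the Cog wildtype arrays on slide 4, so slide and genotype cannot be told apart.

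The start of each 60-base probe is shown because every value below is the signal of that 1 sequence, with no second probe of the gene to set beside it. The first 30 bases run 5′ to 3′ in lower case.
Ctgf (NM_010217): gtcaaatccctgttggtgaacaaatggcct
Cyr61 (NM_010516): aagattagttgggccaagtgaaagccctgc
Nov (NM_010930): aatgaaagatgttccgaatgtaaacttaga
Wisp1 (NM_018865): cattcctcatttttctcatgatctgtgtag
Wisp2 (NM_016873): gtatttgtaaaaatacacatctcttaaatg
The deposited annotation placed these probes on build mm7, at chr10:24349402-24349461 on the plus strand for Ctgf, chr3:145544387-145544446 on the minus strand for Cyr61, chr15:54812769-54812828 on the plus strand for Nov, chr15:67006754-67006813 on the plus strand for Wisp1 and chr2:163573871-163573930 on the plus strand for Wisp2. Exon and UTR boundaries of that build were not used here. The longest run of bases that a member probe shared with any other probe of the array was 13 for Wisp2 and 16 for Cyr61, and 35% of the Nov probe was G or C compared with 45% of the Ctgf and Cyr61 probes.

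Ctgf encodes the family member most closely tied to hypertrophic cartilage. On the log2 scale, the Ctgf signal was 15.44, 14.92 and 15.46 on the Schmid arrays and 18.04, 17.37 and 17.24 on the arrays of the Schmid wildtype. It was 17.26, 18.15 and 18.24 on the Cog arrays and 18.41, 17.73 and 18.20 on the arrays of the Cog wildtype. All 3 Schmid arrays thus lay below the 9 other arrays, with a gap of 1.79 on the log2 scale between the highest Schmid array and the lowest of the others, while the Cog values lay among those of both wildtype groups.

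The mean Ctgf signal of the Schmid group was 15.27 ± 0.30 and that of its wildtype 17.55 ± 0.42 (each SD, n = 3), so that Ctgf was 4.85-fold lower in Schmid (log2 fold change -2.28). In Cog the mean was 17.88 ± 0.54 (SD, n = 3), compared with 18.11 ± 0.34 (SD, n = 3) in its wildtype (log2 fold change -0.23). The Schmid effect minus the Cog effect was -2.05 on the log2 scale. These 3 contrasts are those on which the family was chosen, so no interval is given for them. Among all probes, 10.5% were called in Schmid, 4.69% in the lower direction, and 10.3% were called in the difference between the effects.

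The unnormalised Ctgf intensities of the same spots were 21144, 39361 and 50223 units on the Schmid arrays and 265454, 137612 and 216048 units on those of the Schmid wildtype. Cog arrays gave 126305, 289587 and 269438 units, and their wildtype gave 335873, 278114 and 385361 units. These are the spots on which the family was chosen, and unnormalised units also carry the brightness of each array. The Nov spots, near background, read 283, 690 and 512 units in Schmid and 1135, 900 and 1081 units in its wildtype. The Wisp1 spots read 39278, 76060 and 74799 units in Schmid and 58068, 42179 and 54067 units in its wildtype. No Ctgf spot was marked as saturated, and the local background around the Ctgf spots was between 42.5 and 53 units.

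**Figure D1:**
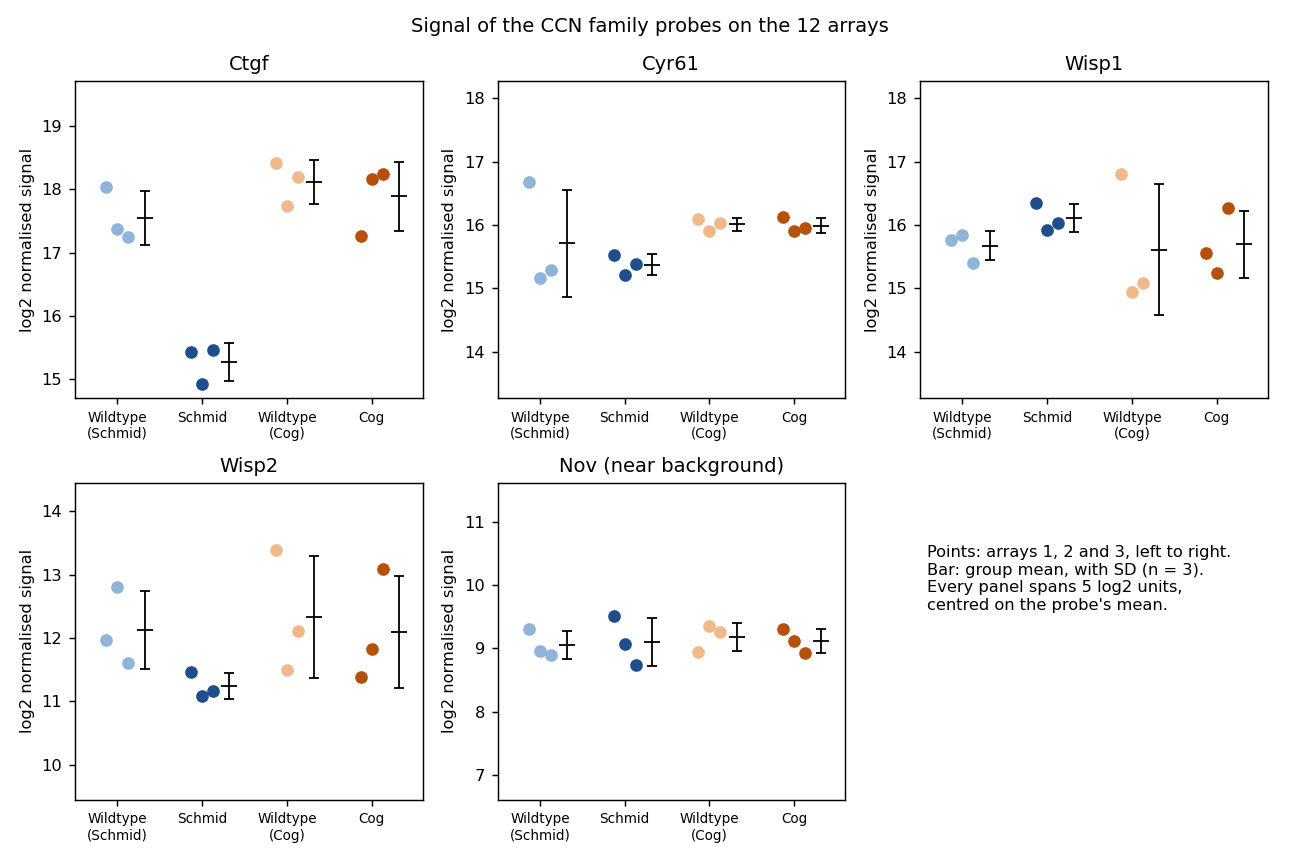
Log2 normalised signal (y axis) of the 5 CCN family probes in the 4 groups (x axis). Points are arrays 1, 2 and 3 of a group, and bars are the group mean with its SD (n = 3). The Schmid arrays lie between 14.92 and 15.46 for Ctgf, below all 9 other arrays, while Nov lies near background in every group.

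In bulk tissue, fewer cells of a type and less RNA per cell cannot be told apart. Other chondrocyte genes were lower on the same Schmid arrays. Of the 8 hypertrophic chondrocyte markers, 3 fell in Schmid, namely Ihh, the hedgehog ligand of prehypertrophic cells (log2 fold change -3.55), Pth1r, the receptor for parathyroid hormone-related protein (-1.20), and Alpl, the mineralising phosphatase (-1.11), and the mean log2 signal of the list was 14.59 to 14.78 in Schmid and 15.56 to 16.51 in its wildtype. The mean log2 signal of 8 general chondrocyte markers was 17.23 to 17.32 in Schmid and 17.62 to 18.13 in its wildtype. Lists of blood, vessel and bone markers had lower mean signals in Schmid as well, where 4.69% of all probes were called in the lower direction. Of 7 red cell markers, 3 fell in Schmid, and the mean log2 signal of that list was 10.79 to 11.63 in Schmid and 12.43 to 14.43 in its wildtype. Of 7 endothelial markers measured, 3 fell and 1 rose, with a mean of 9.95 to 10.38 in Schmid and 10.79 to 11.35 in its wildtype, and the defining marker Pecam1 was at background level on all 12 arrays. The osteoblast list averaged 14.77 to 15.20 in Schmid and 15.38 to 16.69 in its wildtype, and the osteoclast list 10.85 to 11.33 and 11.55 to 12.14. At the brightest probe of each gene, only 1 of 8 osteoblast markers and 1 of 8 osteoclast markers fell past the threshold. Of 8 perichondrium and fibroblast markers, 1 fell in Schmid, and 6 skeletal muscle markers had a median of -1.10 with none called. In Cog, 1 hypertrophic chondrocyte and 1 osteoblast marker fell, 1 perichondrium marker rose and 1 fell, and 1 muscle marker rose, where 2.31% of all probes were called. The part of these cell types in the Ctgf values was not tested.

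The place of the probe on the array also moved with the result. The Ctgf probe lay in row 3 of 532, and the 493 probes within 5 rows of it had a median log2 fold change of -0.30 in Schmid, compared with -0.06 over all probes. Among these near probes, 13.6% were called lower in Schmid and 6.9% higher, while 4.69% of all probes were called lower. With the trend over the rows removed, Ctgf was 3.95-fold lower in Schmid (log2 fold change -1.98).

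The Ctgf difference kept its direction in Schmid under all 17 alternatives, between 3.38-fold lower with quantile normalisation of the scanner's processed signal and 5.39-fold lower without replicate 3 of the Schmid wildtype. In Cog the log2 fold change ran from -0.43 to 0.08, and it was above 0 in the fit without Cog replicate 1. The plot of Ctgf under each setting shows both sets of values.

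**Figure D2:**
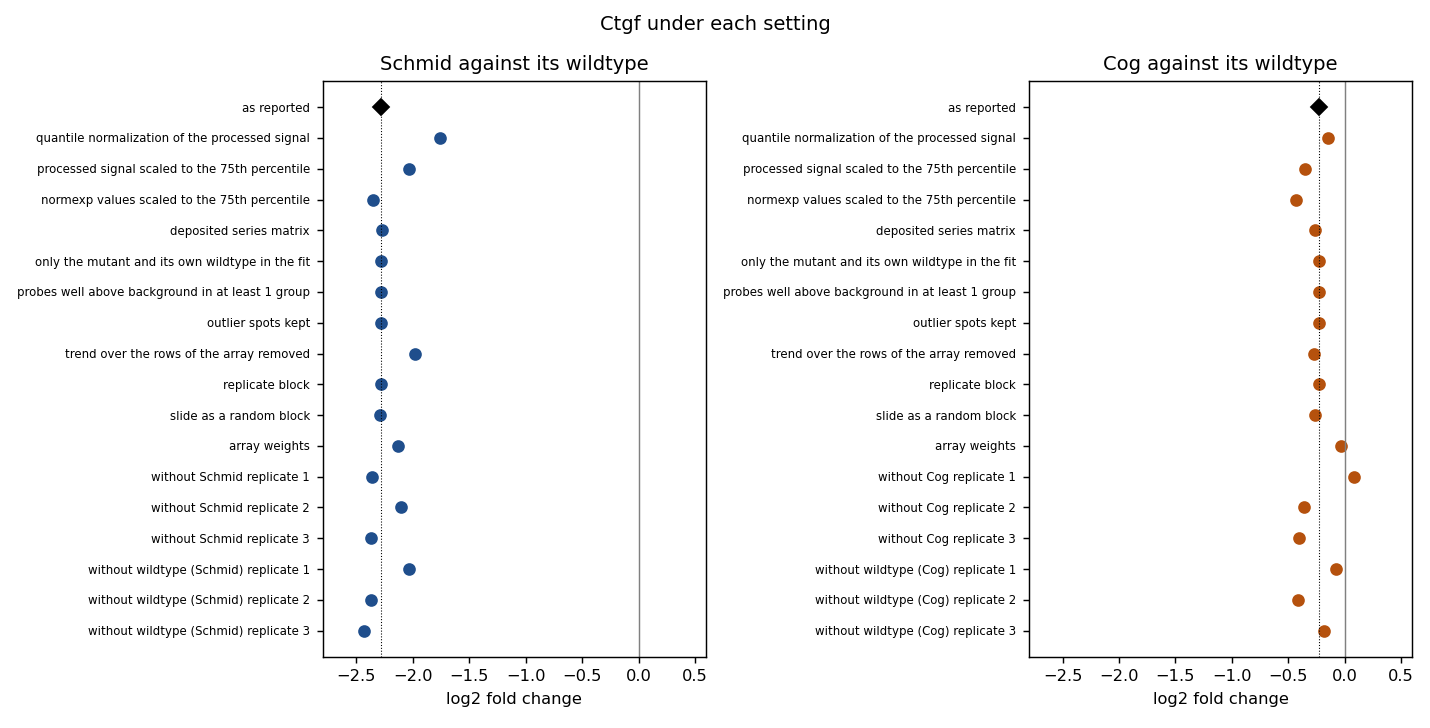
Log2 fold change of Ctgf (x axis) under each processing alternative (y axis), for Schmid and for Cog against their own wildtype. The diamond is the value as reported. The Schmid values lie between -2.43 and -1.76, and the Cog values lie between -0.43 and 0.08.

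Whether the genetic backgrounds differed in Ctgf was asked with the wildtype groups, a contrast that did not enter the choice of the family. The Schmid wildtype was 1.48-fold lower than the Cog wildtype (log2 fold change -0.56, 95% confidence interval -1.25 to 0.12), and the call was not made (limma, adjusted p = 0.459). The groups overlapped, since the highest Schmid wildtype array, at 18.04, lay above the lowest Cog wildtype array, at 17.73. Of all probes, 0.469% were called between the wildtype groups. In order of their means, Ctgf stood lowest in Schmid, then in the Schmid wildtype, in Cog and in the Cog wildtype, and only the step from Schmid to the Schmid wildtype separated neighbours without overlap.

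None of Cyr61, Nov, Wisp1 and Wisp2 passed the threshold in Schmid, in Cog, in the difference between the effects or between the wildtype groups, and this was the case under every alternative. No unadjusted p of Cyr61, Nov, Wisp1 or Wisp2 was below 0.05 in these contrasts, the smallest being 0.126 for Wisp2 in Schmid. In Cog, 2.31% of all probes were called. The intervals below bound how large a change of Cyr61, Wisp1 or Wisp2 could have been missed.

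Cyr61 is an angiogenic ligand of integrins that growth factors induce. The Cyr61 signal was 15.53, 15.20 and 15.38 on the Schmid arrays and 16.68, 15.16 and 15.29 on the arrays of the Schmid wildtype, in log2 units. It was 16.12, 15.90 and 15.95 in Cog and 16.09, 15.90 and 16.03 in the Cog wildtype. Replicate 1 of the Schmid wildtype stood above all the other arrays, and apart from it the Schmid and Schmid wildtype arrays overlapped, as did Cog and its wildtype.

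The log2 fold change of Cyr61 was -0.34 in Schmid (95% confidence interval -1.06 to 0.38, limma adjusted p = 0.463) and -0.02 in Cog (95% confidence interval -0.74 to 0.70, limma adjusted p = 0.982). Without replicate 1 of the Schmid wildtype, the sign of the Cyr61 value in Schmid turned, to 0.14 on the log2 scale. Probes within 5 rows of the Cyr61 probe had a median of -0.33 in Schmid, and with the trend over the rows removed the Cyr61 value was -0.03. The Schmid effect minus the Cog effect was -0.32 (95% confidence interval -1.34 to 0.69, limma adjusted p = 0.661).

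Wisp1 is a Wnt-induced member known from the osteoblast lineage. Its log2 signal was 16.35, 15.93 and 16.04 on the Schmid arrays and 15.77, 15.85 and 15.41 on the arrays of the Schmid wildtype. In Cog it was 15.55, 15.25 and 16.28, and in the Cog wildtype 16.80, 14.94 and 15.08. The Schmid arrays were all above those of the Schmid wildtype, by a margin that was small beside the spread among the Cog wildtype arrays, where replicate 1 stood apart.

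The log2 fold change of Wisp1 was 0.43 in Schmid (95% confidence interval -0.55 to 1.41, limma adjusted p = 0.498) and 0.08 in Cog (95% confidence interval -0.89 to 1.06, limma adjusted p = 0.936). Probes within 5 rows of the Wisp1 probe had a median of -0.28 in Schmid, and with the trend over the rows removed the Wisp1 value was 0.71. The Schmid effect minus the Cog effect was 0.35 (95% confidence interval -1.04 to 1.73, limma adjusted p = 0.735). Wisp1 was thus the measured member above background whose mean was higher in Schmid than in its wildtype, with an interval that included 0.

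Wisp2, the member without the cystine knot, is known from osteoblasts and fibroblasts. Its log2 signal was 11.47, 11.08 and 11.17 on the Schmid arrays and 11.97, 12.80 and 11.61 on the arrays of the Schmid wildtype. In Cog it was 11.38, 11.83 and 13.09, and in the Cog wildtype 13.39, 11.50 and 12.11. The Schmid arrays lay below those of the Schmid wildtype with no overlap, but Cog replicate 1 lay below the highest Schmid array, so the separation seen for Ctgf from all 9 other arrays was not seen for Wisp2.

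The log2 fold change of Wisp2 was -0.88 in Schmid (95% confidence interval -2.06 to 0.30, limma adjusted p = 0.242) and -0.23 in Cog (95% confidence interval -1.41 to 0.95, limma adjusted p = 0.841). These intervals were the widest among the tested members. The Schmid effect minus the Cog effect was -0.65 (95% confidence interval -2.32 to 1.02, limma adjusted p = 0.579). In the Cog wildtype, replicate 1 had the highest Wisp1 and Wisp2 signals, and it also had the highest mean osteoblast signal of its group, 16.68 compared with 15.96 and 15.99. In the Schmid wildtype, replicate 1 likewise had the highest mean osteoblast signal, 16.69 compared with 15.49 and 15.38, while the highest Wisp1 and Wisp2 signals were those of replicate 2. The part of osteoblast RNA in these values was not tested.

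Ctgf is left out of the next comparison, since the family was chosen on it. Wisp1 and Wisp2 had Schmid arrays that did not overlap those of the Schmid wildtype, while Cyr61 and Nov overlapped. Of all probes, 45.4% separated these groups. None of Cyr61, Nov, Wisp1 and Wisp2 separated Cog from its wildtype, where 29.4% of all probes did so.

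Nov, a member linked to Notch signalling, was close to background. It was well above background on 1 of 12 arrays, replicate 1 of Schmid, and its log2 signal lay between 8.74 and 9.35 on all the others, so no fold change is given. Group means ran from 9.05 in the Schmid wildtype to 9.18 in the Cog wildtype, and all 4 groups overlapped.

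**Figure D3:**
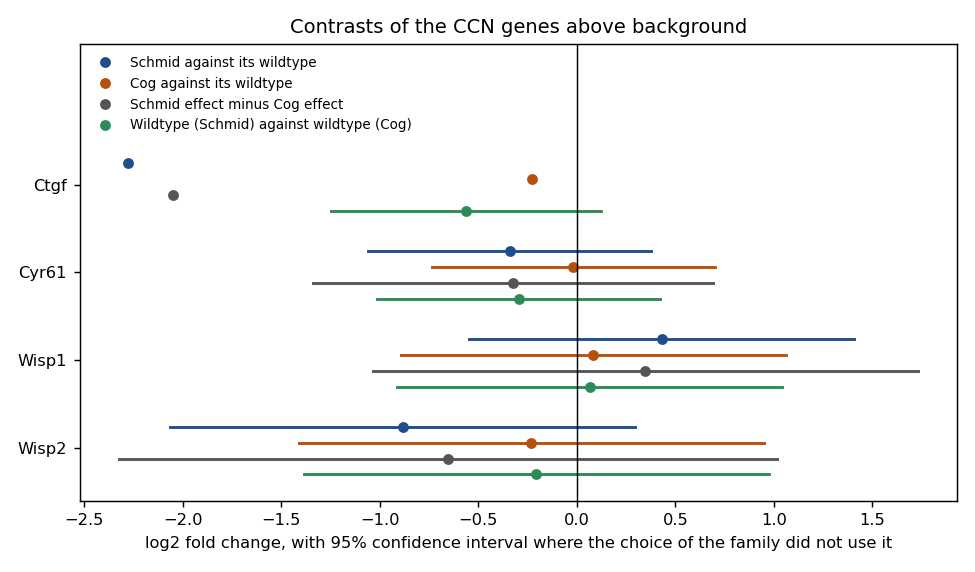
Log2 fold change (x axis) of the 4 CCN genes above background (y axis), in Schmid and in Cog against their own wildtype, in the difference between these effects and between the wildtype groups. Lines are 95% confidence intervals and are left out for Ctgf in the contrasts on which the family was chosen, and all the intervals drawn include 0.

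The genes whose signals most resembled those of Ctgf were sought among 10486 genes well above background on all 12 arrays, by Pearson correlation over the arrays. The highest were Frzb, a secreted Wnt antagonist of cartilage (r = 0.976), Nid1, a basement membrane linker (0.970), Ccdc80, a matrix protein (0.968), the unnamed transcript BU920841 (0.963) and Arsi, a sulfatase (0.963). These arrays share genotype and slide, and part of the likeness was carried by the Schmid group, whose low Ctgf values chose the family. All 5 genes were lower there, with log2 fold changes of -1.99 for Frzb, -2.56 for Nid1, -1.14 for Ccdc80, -3.43 for BU920841 and -3.45 for Arsi. After the group means were removed, r was 0.844 for Frzb, 0.899 for Nid1, 0.604 for Ccdc80, 0.749 for BU920841 and 0.516 for Arsi. Without replicate 1 of the Schmid wildtype, a check added after the values were seen, the value for Arsi was 0.128 and the other 4 lay between 0.544 and 0.875.

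For Cyr61 the highest were NAP033385-1 (r = 0.921), Fgfr3, a growth plate FGF receptor (0.912), the transcript TC1430646, described as part of collagen XII (0.895), Ext2, a heparan sulfate polymerase (0.889), and Matn3, a cartilage matrilin (0.884). No gene was on both lists of 5. With the group means removed, r was 0.875 for Fgfr3 and 0.820 for Matn3, but this rested largely on replicate 1 of the Schmid wildtype, which stood apart for Cyr61. Without that mouse the within-group r was 0.6005 for Fgfr3, 0.506 for Ext2, 0.355 for Matn3, 0.370 for TC1430646 and 0.3501 for NAP033385-1, while r over the 11 arrays was still 0.812 to 0.871.

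Genes around the family were taken from 5 lists with 76 different genes on the array, at the brightest probe of each gene. Of these, 19 passed the threshold in Schmid and 4 in Cog, where 10.5% and 2.31% of all probes did so. A further probe was called where the brightest was not for Tgfbr2 (2.45-fold higher in Schmid, adjusted p = 0.014) and Crim1 (3.41-fold higher in Cog, adjusted p = 0.0318). That Tgfbr2 probe was well above background on only 2 of 12 arrays, so its fold change was taken near background. The brightest Tgfbr2 probe, above background on all 12, was 1.10-fold higher in Schmid. Each list is given below with its counts and median, beside the median over all probes of -0.06 in Schmid and 0.00 in Cog.

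**Figure D4:**
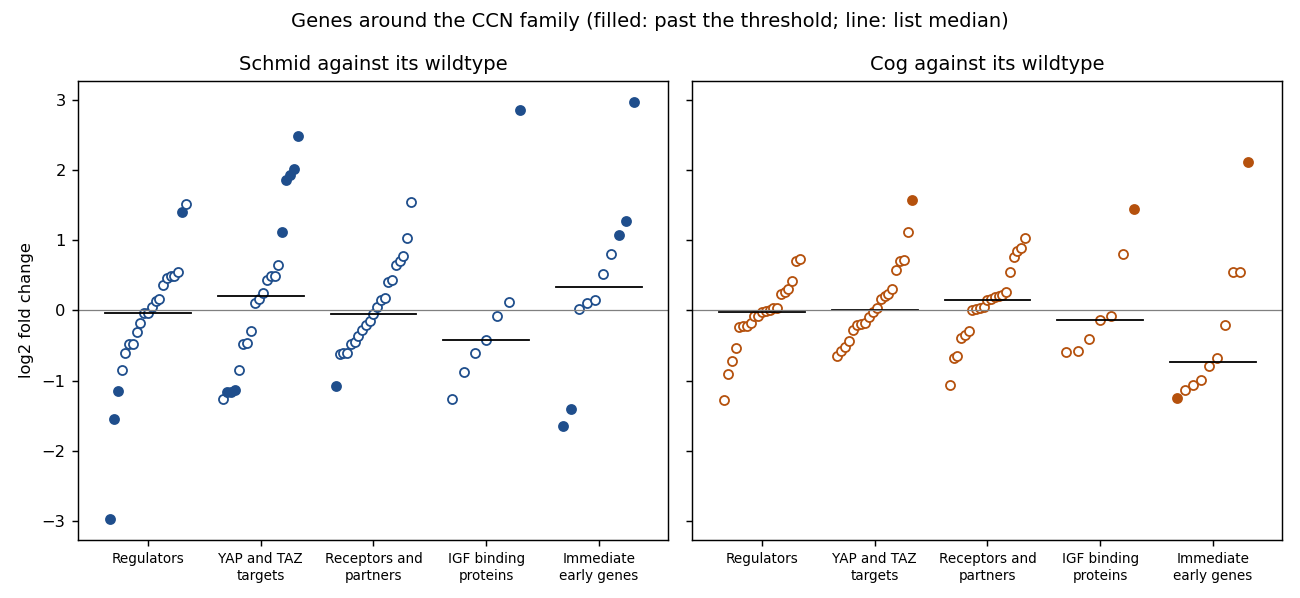
Log2 fold change (y axis) of each gene of the 5 lists (x axis) in Schmid and in Cog against their own wildtype. Filled points passed the threshold and lines are list medians. Of 21 regulators, Tgfb3 lies lowest in Schmid, and no regulator passed in Cog.

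The list of CCN regulators held 21 genes of the TGF-beta and YAP pathways and related factors. In Schmid 1 rose and 3 fell, with a median of -0.04, and in Cog none passed, with a median of -0.02. Tgfb3, a TGF-beta ligand, had log2 signals of 12.57, 12.52 and 12.25 on the Schmid arrays and 15.38, 15.49 and 15.37 on those of the Schmid wildtype. It was 15.18, 15.01 and 15.70 in Cog and 15.48, 15.42 and 15.70 in the Cog wildtype.

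Tgfb3 thus fell 7.83-fold in Schmid (log2 fold change -2.97, limma adjusted p = 2.1e-05), was 1.18-fold lower in Cog (adjusted p = 0.464), and its effects differed between the mutants (-2.73, adjusted p = 0.000414). All 3 Schmid arrays lay below the 9 others. The share of all probes with that pattern was not counted, and 45.4% separated Schmid from its own wildtype in either direction. The Tgfb3 call in Schmid and in the difference was made under every alternative.

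The other TGF-beta ligands moved less. Tgfb1 fell 2.22-fold in Schmid (adjusted p = 0.0346) and was 1.87-fold lower in Cog (adjusted p = 0.161). Tgfb2 was 1.39-fold lower in Schmid (adjusted p = 0.265) and 1.63-fold higher in Cog (adjusted p = 0.214). The Tgfb1 call was lost when the trend over the rows was removed and when any single Schmid array, or replicate 2 or 3 of the Schmid wildtype, was left out.

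Among the YAP pathway genes, Tead2, a DNA-binding partner of YAP, fell 2.93-fold in Schmid (adjusted p = 0.0205), but a second Tead2 probe gave 1.03-fold (adjusted p = 0.915), and the call was lost without Schmid replicate 1 or without replicate 2 or 3 of its wildtype. Lats1, a kinase that inhibits YAP, rose 2.65-fold in Schmid (adjusted p = 0.0367) and was well above background on 1 of the 3 Schmid wildtype arrays. The Lats1 call was lost under 8 of 17 alternatives, among them the same 3 and the fits without Schmid replicate 2 or 3. Yap1 itself was 1.40-fold higher in Schmid (adjusted p = 0.0471) and 1.67-fold higher in Cog (adjusted p = 0.0287), in both cases short of 2-fold, and Wwtr1, which encodes TAZ, was 1.03-fold higher in Schmid (adjusted p = 0.876).

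The YAP and TAZ target signature, without the CCN genes, held 20 genes, of which 5 rose and 3 fell in Schmid (median 0.20) and 1 rose in Cog (median 0.01). Nt5e, an ectonucleotidase, had log2 signals of 14.66, 14.76 and 14.78 in Schmid and 13.75, 11.27 and 11.72 in its wildtype, and rose 5.61-fold (adjusted p = 0.0161). Its values in Cog (12.83, 13.28 and 13.09) overlapped those of the Cog wildtype (13.11, 11.24 and 11.53). Without replicate 2 or replicate 3 of the Schmid wildtype, the Nt5e call was lost.

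Gadd45a, a growth arrest gene that also responds to stress, was the member of this list called in both mutants. Its log2 signal was 14.28, 14.35 and 14.34 in Schmid and 12.67, 11.80 and 12.46 in the Schmid wildtype, a rise of 4.03-fold (adjusted p = 0.00117). It was 13.95, 13.71 and 12.92 in Cog and 11.75, 11.82 and 12.30 in the Cog wildtype, a rise of 2.96-fold (adjusted p = 0.017). Neither pair of groups overlapped, as was the case for 45.4% of all probes in Schmid and 29.4% in Cog. The Cog call was lost under 4 of 17 alternatives, namely without Cog replicate 2, without replicate 2 of the Cog wildtype, with the processed signal scaled to its 75th percentile, and with Cog and its wildtype alone in the fit.

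Ptpn14, a phosphatase that binds YAP, rose 3.80-fold in Schmid (adjusted p = 0.00164) and was 1.35-fold lower in Cog (adjusted p = 0.434), a difference between the effects that passed the threshold (adjusted p = 0.00505). Of its 3 other probes none was called in Schmid. F3, tissue factor, was well above background on all Schmid arrays and on no other array, and was at least 2.52-fold higher in Schmid than in its wildtype (adjusted p = 0.000174), where "at least" sets the bright group against the lowest signal counted as above background. Foxf2 was likewise above background in Schmid alone. It passed the threshold by its measured means (adjusted p = 0.0101), but its bound was only at least 1.34-fold higher, and the call was lost without Schmid replicate 1, with normexp values scaled to the 75th percentile and with array weights.

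The members of the signature that fell in Schmid were Ccdc80 (2.20-fold, adjusted p = 0.00105), Arhgef17 (2.24-fold, adjusted p = 0.0482) and Nuak2 (2.23-fold, adjusted p = 0.038). The Ccdc80 call was made under every alternative. Ccdc80 was also among the genes most like Ctgf, but that ranking used the Schmid values on which the family was chosen, so it is not a separate result. The Arhgef17 call was lost under 11 of 17 alternatives and the Nuak2 call under 7. Targets in the same signature lay on both sides of 0 in Schmid, and any part of YAP or TAZ in the Ctgf values was not tested.

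Of 22 listed receptors and binding partners of CCN proteins, 21 were on the array, Hspg2 being absent under its symbol. At the brightest probe of each gene, Lrp1 was the partner that passed the threshold in Schmid. It encodes an endocytic receptor for Ctgf and fell 2.12-fold (adjusted p = 0.00308), while its second probe was 2.22-fold lower (adjusted p = 0.165). Of 19 further probes of these genes, 3 were called in Schmid, namely for Itga6 (3.64-fold higher, adjusted p = 0.0212), an integrin subunit, Dcn (4.04-fold higher, adjusted p = 0.00355), decorin, and Itgb3 (2.62-fold lower, adjusted p = 0.0185), a vitronectin receptor subunit. Their brightest probes went the same way but were not called, at 1.72-fold higher, 1.56-fold higher and 1.03-fold lower. The called Itga6 and Dcn probes were well above background on only 4 and 3 of 12 arrays, so their fold changes were taken near background. No partner passed in Cog at any probe, where the list median was 0.15, compared with -0.05 in Schmid. The Lrp1 call was lost under 5 of 17 alternatives, among them the fit without Schmid replicate 3 and the one with the trend over the rows removed, when its log2 fold change was -0.77, and the probe lay in row 28.

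Vegfa, the vessel growth factor that Ctgf binds, was 1.15-fold lower in Schmid (adjusted p = 0.62) and 1.61-fold lower in Cog (adjusted p = 0.198). Fn1, fibronectin, was 2.92-fold higher in Schmid (adjusted p = 0.0593) and 2.04-fold higher in Cog (adjusted p = 0.304). Both were named after their values were seen, as ligand partners of the family, and neither passed the threshold.

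Of the 7 IGF binding proteins, whose N-terminal module CCN proteins share, 1 rose in Schmid and a different one rose in Cog. Igfbp6 had log2 signals of 13.53, 13.14 and 12.99 in Schmid and 9.88, 10.73 and 10.47 in its wildtype, a rise of 7.25-fold (adjusted p = 0.000584). Its values were 11.50, 11.13 and 10.05 in Cog and 10.29, 9.79 and 10.20 in the Cog wildtype, which overlapped (1.74-fold, adjusted p = 0.224). The effects differed (adjusted p = 0.0202).

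Igfbp4 rose 2.72-fold in Cog (adjusted p = 0.021) and was 1.06-fold lower in Schmid (adjusted p = 0.853), again with a difference that passed the threshold (adjusted p = 0.0268). It was well above background on 1 of the 3 Cog wildtype arrays. The Igfbp4 call in Cog was lost under 5 of 17 alternatives, among them the fits without Cog replicate 2 and without replicate 2 or 3 of the Cog wildtype. The list medians were -0.43 in Schmid and -0.13 in Cog.

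CCN genes belong to the early response to growth factors, so 10 immediate early genes were followed. In Schmid 3 rose and 2 fell (median 0.33), and in Cog 1 rose and 1 fell (median -0.74). Atf3, a stress-induced transcription factor, had log2 signals of 16.49, 15.89 and 15.89 in Schmid and 13.62, 12.99 and 12.77 in its wildtype, and of 15.40, 15.49 and 16.08 in Cog and 13.55, 13.57 and 13.51 in the Cog wildtype. The rise was 7.82-fold for Schmid (adjusted p = 0.000123) and for Cog 4.34-fold (adjusted p = 0.00337), and these calls were made under every alternative.

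Egr1, a zinc finger factor induced by growth factors, fell in both mutants. It had log2 signals of 12.33, 12.54 and 12.47 in Schmid and 14.71, 13.73 and 13.84 in its wildtype, a fall of 3.13-fold (adjusted p = 0.0032), and of 12.85, 13.06 and 13.44 in Cog and 14.88, 14.16 and 14.05 in the Cog wildtype, a fall of 2.38-fold (adjusted p = 0.0376). The Cog call was lost under 10 of 17 alternatives, among them each of the 6 fits that left out an array. In Schmid, Egr2 also fell (2.64-fold, adjusted p = 0.00889), while Jun rose 2.43-fold (adjusted p = 0.00722) and Dusp1, a phosphatase of MAP kinases, rose 2.10-fold (adjusted p = 0.0216), a call lost in 5 of the 6 fits that left out an array. Members of the early response changed in both directions in Schmid, and their relation to the Ctgf values was not tested.

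**Figure D5:**
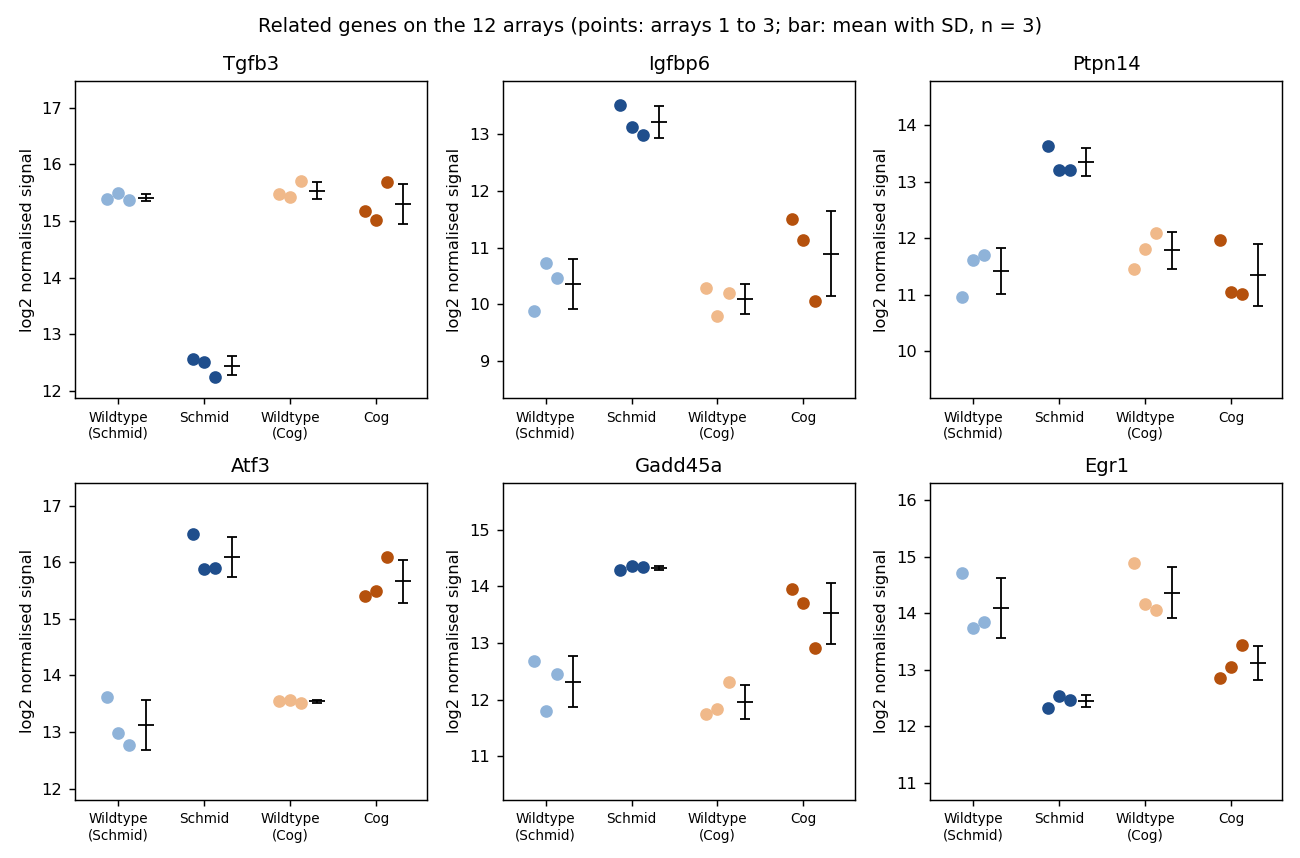
Log2 normalised signal (y axis) of 6 genes from the lists in the 4 groups (x axis), with points for arrays 1, 2 and 3 and bars for the mean with its SD (n = 3). Tgfb3 lies between 12.25 and 12.57 in Schmid and above 15 elsewhere, Igfbp6 and Ptpn14 are highest in Schmid, Atf3 and Gadd45a are high in both mutants, and Egr1 is low in both.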

How the data were processed

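Hypertrophic zone RNA from 12 mice in 4 groups of 3 was hybridised to single-colour arrays. The authors deposited the spot intensity values of each array from Agilent Feature Extraction 9.5.3, and a series matrix of log2 values after normexp correction and quantile normalisation. The deposited annotation gave gene symbols, accessions and mm7 positions.

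Here the mean spot and median local background intensities were combined with normexp (offset 50), outlier spots and control spots were left out, log2 values were quantile normalised, and spots of a probe were averaged. Group means were fitted with limma 3.58.1 in R 4.3.3 (with the data.table package, version 1.17.8), with all 12 arrays and 8 residual degrees of freedom. Calls required a Benjamini-Hochberg adjusted p of 0.05 or less over 41174 probes and a change of at least 2-fold. The lowest correlation of an array with the deposited log2 matrix was 0.99987. The number of arrays limits the precision, and arrays hold no read depth. The scripts' statistics were tested on simulated data.

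Alternatives changed the background correction, scaling, fit, filter, position on the array, blocks, weights and arrays used. Other probes of a member could not be used, since each member had 1. The text names each member, up to 4 called genes with the largest change from each related list in each mutant, and the 5 genes most like Ctgf and Cyr61. Foxf2, Ccdc80, Arhgef17, Nuak2, Dusp1, Vegfa, Fn1, Bmp4, Fosb, Ier3, Itga6, Itgb3, Dcn, Tgfbr2, Crim1 and the called cell type markers were added after their values were seen. The members and lists were chosen with earlier results of these data known.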

Additional observations from a re-analysis of the deposited data

Results flagged for a closer look

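The Schmid and Cog effects differed by the interaction contrast in limma for 7 genes of the 5 related lists, and for none of Cyr61, Nov, Wisp1 and Wisp2. These 7 were well above background on at least 1 array of each mutant and wildtype pair. The 5 lists held 76 different genes, and 10.3% of all probes were called in this contrast, so the count alone does not set these lists apart. Ctgf was not tested, since the family was chosen on this contrast, and F3 is left out because Cog and its wildtype were both at background. The Schmid effect minus the Cog effect was -2.73 on the log2 scale for Tgfb3, 2.36 for Ptpn14, 2.06 for Igfbp6 and -1.53 for Igfbp4, all described above. It was also -1.16 for Bmp4 (adjusted p = 0.00923), a growth factor bound by Ctgf, which was 1.53-fold lower in Schmid and 1.46-fold higher in Cog. It was 1.65 for Fosb (adjusted p = 0.0335) and 1.80 for Ier3 (adjusted p = 0.0173), immediate early genes that were higher in Schmid and lower in Cog, none of these values passing the threshold within a mutant. The difference of Bmp4 was lost with the row trend removed and with array weights, that of Igfbp4 under 8 of 22 alternatives, that of Igfbp6 under 3, that of Fosb under 10 and that of Ier3 under 1. Groups of 3 arrays are too small for the test of single outlying arrays, which was not run.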

How the results depend on the processing

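No call was made for Cyr61, Nov, Wisp1 or Wisp2 in any comparison under any alternative. With quantile normalisation of the scanner's processed signal, the log2 fold change of Ctgf moved to -1.76 in Schmid and to -1.60 in the difference between the effects. Scaling the processed signal to its 75th percentile moved the median of all probes to -0.40 in Schmid and to 0.43 in Cog, and the normexp values scaled this way moved it to -0.35 in Schmid. Small uncalled values changed sign. Cyr61 became 0.044 in Schmid with quantile normalisation of the processed signal and 0.023 in Cog with array weights, and its difference became 0.13 with the former, 0.28 and 0.019 with processed and normexp values set to the 75th percentile and 0.14 with the row trend removed. Wisp1 in Cog became -0.20, -0.16 and -0.036 under the last 3 of these, and Wisp2 in Cog 0.11 with array weights. Leaving out 1 array gave -0.62 to 0.14 for Cyr61 in Schmid, -0.083 to 0.028 in Cog and -0.60 to 0.16 for its difference, -0.25 to 0.68 for Wisp1 in Cog and for its difference, and -0.73 to 0.30 for Wisp2 in Cog. Of the 76 related genes, 12 to 24 were called in Schmid when 1 array was left out, with 12 without Schmid replicate 1 and without replicate 3 of its wildtype. In Cog 1 to 6 were called, with 1 without Cog replicate 2 and without replicate 2 of its wildtype, and 2 without replicate 3 of its wildtype. In Cog, 2 were called with 75th percentile scaling of the processed signal and with Cog and its wildtype alone in the fit, 8 with slide as a random block (estimated correlation -0.122), and 15 with array weights. The cause was not tested.

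The labels give the groups the same replicate numbers but no shared litter or day. Arrays with the same number deviated together by correlations of 0.193, 0.171 and 0.066 over all probes for Schmid and its wildtype, and by -0.116, 0.0716 and -0.106 for Cog and its wildtype. Restricted to 12807 probes that every array measured well above background, they were 0.306, 0.283 and 0.117 for Schmid, all above 0.1, and -0.209, 0.153 and -0.201 for Cog. Over the same probes, the 2 wildtype groups, of different backgrounds, gave 0.505, 0.115 and 0.274. The numbers may pair the Schmid arrays, but a shared number also went with such correlations between backgrounds, so these values cannot show it. The Cog correlations had both signs, and the fit without the block was kept. With the replicate block, the log2 fold change of Ctgf was -2.28 in Schmid and -0.23 in Cog, and 19 related genes were called in Schmid and 3 in Cog. Nuak2 in Schmid and Egr1 in Cog lost their calls, and none of Cyr61, Nov, Wisp1 and Wisp2 was called.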
